A study of Mus musculus with 2 samples.

Results

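Mature oligodendrocytes of the mouse spinal cord were taken from a single-cell RNA library made at 3 days post injury (3 dpi). The labels do not say how the cord was injured. Members were chosen by measured gene levels. A barcode counted as a member if it held at least 1000 UMIs, if Mag, Mog, Mobp, Ermn, Cldn11 and Opalin together reached 40 per 10000 UMIs, and if 3 other sums stayed low: Syt4 and Sox4 below 5, C1qa, C1qb and C1qc below 20, and Pdgfra, Cspg4 and C1ql1 below 5 per 10000. The rule kept 1388 of 13594 barcodes at 3 dpi (10.2%, exact 95% interval 9.71 to 10.7), of 23732 barcodes in both libraries. The same rule applied to the sham library kept 4697 of 10138 barcodes (46.3%, interval 45.4 to 47.3), and these cells served as the reference. Such shares move with every other cell type captured, so they are not a count of surviving cells.

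Each library, 3 dpi and sham, pooled 5 males and 5 females of C57BL/6 at 8 weeks of age. Cord was taken over 8 mm around the injury site. With 1 library per group there is no test and no p-value, library and injury cannot be told apart, and each interval given covers counting error only. Levels are UMIs per 1000000 summed UMIs of the cells (CPM) unless given per 10000 UMIs of a cell. A gene was measured if it reached 20 CPM in at least 1 library. A call of higher or lower needs a 2-fold difference once 10 CPM is added on each side. A gene that reaches 20 CPM in 1 library alone can be called only as higher in that library.

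Oligodendrocytes wrap axons in myelin, and in the spinal cord their mature forms fall into types known by different genes, among them Klk6, which encodes a secreted serine protease, and Ptgds, which encodes prostaglandin D synthase. Serpina3n encodes a secreted inhibitor of serine proteases that glia make in injury and inflammation, and C4b encodes complement component C4, which acts downstream of C1q. Both belong to the acute phase genes that cytokines of the IL-6 family induce through STAT3 in other tissues.

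The members held a median of 8657.5 UMIs per cell at 3 dpi (range 1009 to 59152) and 8083 in sham (range 1028 to 97200), and a median of 2933.5 genes at 3 dpi and 2901 in sham. Summed, that was 15192343 UMIs at 3 dpi and 49775048 in sham. The simulated-neighbour caller marked 114 members at 3 dpi (8.21%) and 342 in sham (7.28%) as doublets. They were kept, and results that move without them are given both ways, except counts within gene lists, which include them. The libraries shared 39 barcodes, 1 of them among members. Markers of other cells were seen in the 3 dpi members: 17 of 18 measured microglia and macrophage markers were called higher, and the list summed to 8622 CPM against 2016 CPM in sham. Spp1, the osteopontin gene, had a UMI in 99.4% of 3 dpi members at 1522 CPM, which is 4.17% of its level in C1q phagocytes of that library, and it lay between 1006 and 1275 CPM in precursors, endothelial cells and Syt4 and Sox4 oligodendrocytes. Without called doublets its level was between 861 and 913 CPM in all 4 groups of members ranked by Serpina3n. Endothelial markers went the other way, at 23.7 CPM in 3 dpi members and 472 CPM in sham members. Of the 131 genes called higher at 100 CPM or more, 22 stood below 10% of their level in the highest class of the 3 dpi library. Their part in the results below was not tested. They are left out of the named genes.

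Myelin genes the rule did not use were compared between the members and other classes. Barcodes of those classes had to have a sum of the 6 rule genes below 10 per 10000. Low myelin RNA there was thus partly set in advance, and the comparison is a description. Mbp was at 5698 CPM in the members, against 53.4 to 208 CPM in C1q phagocytes, neutrophils, monocytes, endothelial cells, precursors and fibroblasts of the same library. Cnp, a myelin enzyme, was at 3414 CPM in the members, against 34.8 to 529 CPM in those classes. Of the genes the rule did use, Mag, a myelin adhesion protein, was at 4273 CPM in 3 dpi members and 3875 CPM in sham members. The summed level of the 6 myelin genes had a median of 163 per 10000 at 3 dpi and 151 in sham, far above the limit of 40. Few cells lay near it: 7 members at 3 dpi had a sum of 40 to 45, with a median Serpina3n level of 9.0 per 10000, and 19 barcodes just outside, at 35 to 40, had a median of 11.8. The limit on Syt4 and Sox4 cut through a denser range. It set aside 330 barcodes that met every other condition, against 1388 members. Members with a Syt4 and Sox4 sum of 2.5 to 5 numbered 128 and had a median of 35.2 Serpina3n per 10000. The 159 barcodes just outside, at 5 to 10, had a median of 32.2.

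Serpina3n had the highest log2 ratio of all measured genes with 10 CPM added (7.58). Some genes with lower sham levels, Klk8, Spp1 and Pf4 among them, had higher plain folds. Serpina3n summed to 4275 CPM at 3 dpi and 12.5 CPM in sham, a 343-fold ratio (interval 317 to 372). Nearly every cell carried it: 98.5% of 3 dpi members had a Serpina3n UMI against 8.90% of sham members, and after each cell was thinned to 1000 UMIs the shares were 90.9% at 3 dpi and 1.06% in sham. Per cell the 3 dpi level was 11.7 per 10000 at the 10th percentile, 38.6 at the median and 72.5 at the 90th percentile. The sham median was 0, and the distributions overlapped little: 1130 of 1388 members at 3 dpi reached 20 per 10000, against 1 of 4697 in sham. The classes of other lineages that were compared gave low values, with 33.1 CPM in C1q phagocytes, 44.0 CPM in neutrophils and 36.4 CPM in endothelial cells of the 3 dpi library. No astrocyte or ependymal class was among them, so the level there is not known from this comparison. Other cells of the oligodendrocyte lineage were high as well, at 3245 CPM in Syt4 and Sox4 oligodendrocytes and 2136 CPM in precursors. The closest copies of the gene, Serpina3b and Serpina3k, were 77% identical over the last 300 bases of the longest coding transcripts of mouse GENCODE.

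C4b had a smaller ratio and left more cells without it. It was at 618 CPM in 3 dpi members and 33.5 CPM in sham members, an 18.5-fold ratio (interval 17.5 to 19.5). A C4b UMI was seen in 89.2% of 3 dpi members and 16.9% of sham members, with thinned shares of 45.2% at 3 dpi and 3.26% in sham. The median cell held 5.92 per 10000 at 3 dpi and 0 in sham. C1q phagocytes of the 3 dpi library were at 13.7 CPM and neutrophils at 5.92 CPM. Reads of C4b and its near copy C4a may not be told apart by 3′ counts.

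Klk6 was already abundant in sham. It was at 2940 CPM in 3 dpi members and 1210 CPM in sham members, a log2 ratio of 1.27. Per cell at 3 dpi the lower quartile was 15.8, the median 26.5 and the upper quartile 38.7 per 10000, so a low level was rare. In sham the cells split, with a lower quartile of 0, a median of 2.10 and an upper quartile of 16.1 per 10000. Klk8, a second secreted kallikrein, was at 671 CPM in 3 dpi members and 1.69 CPM in sham members, a 398-fold ratio (interval 321 to 499). Its UMIs reached 62.2% of 3 dpi members and 1.62% of sham members, and the highest sham cell held 3 Klk8 UMIs. In the sham library the gene sat elsewhere, at 173 CPM in C1q phagocytes.

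**Figure D1:**
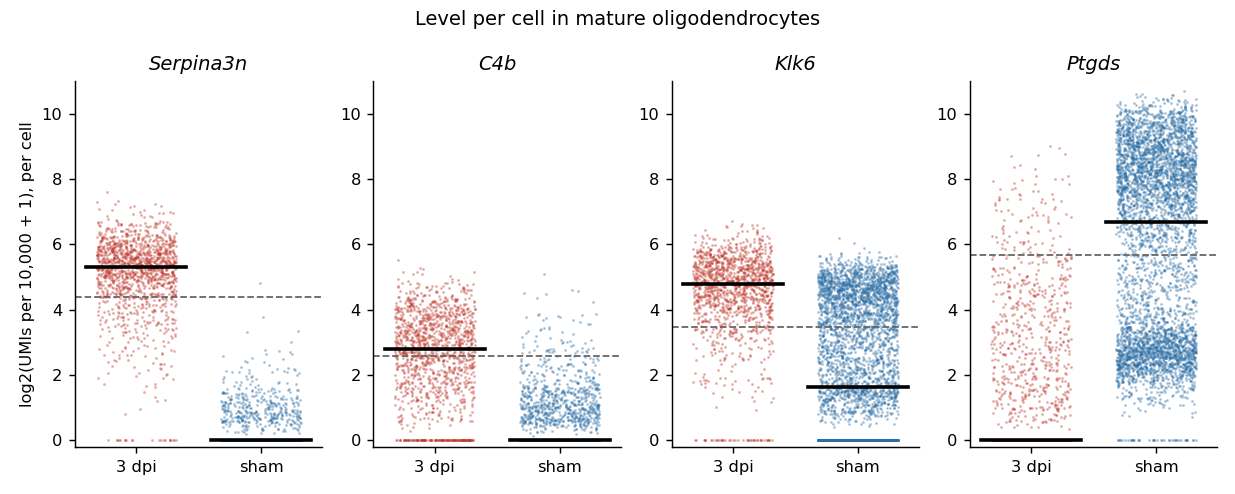
Level per cell of Serpina3n, C4b, Klk6 and Ptgds as log2(UMIs per 10,000 + 1), each point 1 mature oligodendrocyte, with 1388 cells at 3 dpi (left) and 4697 in sham (right). Black bars are medians and dashed lines the levels that define the states (20, 5, 10 and 50 per 10000). Serpina3n and C4b are near 0 in most sham cells, Klk6 and Ptgds are each split in sham, and at 3 dpi few cells are low in Klk6 or high in Ptgds.

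Serpina3n and Klk8 are shown by sequence because they were near 0 in sham and had the highest log2 ratios of the named genes. The windows are the 250 bases before the RefSeq start (GRCm38.p6, plus strand), at chr12:104406458-104406707 for Serpina3n and chr7:43797327-43797576 for Klk8, written 5′ to 3′. They were searched on both strands for a STAT-type motif, TTCNNNGAA, and a kappa-B-type motif, GGG then any 2 bases then TTTCC, and capitals mark a match.
Serpina3n: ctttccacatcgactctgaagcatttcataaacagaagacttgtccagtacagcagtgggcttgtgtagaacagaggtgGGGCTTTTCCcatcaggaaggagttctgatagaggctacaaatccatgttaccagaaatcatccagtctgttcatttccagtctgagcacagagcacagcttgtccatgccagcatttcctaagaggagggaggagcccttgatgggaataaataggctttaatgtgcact
Klk8: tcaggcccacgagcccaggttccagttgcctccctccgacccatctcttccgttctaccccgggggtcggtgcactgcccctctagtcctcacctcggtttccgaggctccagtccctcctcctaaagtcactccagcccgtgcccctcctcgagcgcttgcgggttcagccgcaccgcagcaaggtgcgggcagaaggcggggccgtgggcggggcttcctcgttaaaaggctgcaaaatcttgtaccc
The Serpina3n window held 1 kappa-B-type match, starting 171 bases before the start, and no STAT-type match. The Klk8 window held neither. Among 32851 promoter windows of the same length, 1.41% held the kappa-B-type letters and 7.02% the STAT-type letters. A match of letters is a description of the window and not a site of binding.

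Across the transcriptome, 293 of 6350 measured genes were called higher at 3 dpi (4.61%) and 255 lower (4.02%), and the median log2 ratio was -0.06. Of these, 226 of the 293 and 183 of the 255 were also called in cells assigned to males and in cells assigned to females by Xist and Y-linked UMIs. By the naming rule the highest genes after Serpina3n and Klk8 included C4b, Fxyd7, S100a6, Gadd45g, Gpd1, Cd63, Arpc1b, Cebpd and Socs3. Fxyd7, a regulator of the sodium pump, was at 152 CPM in 3 dpi members and 1.41 CPM in sham members, with a UMI in 16.9% of 3 dpi members. Cd63, a tetraspanin of late endosomes, was at 1748 CPM at 3 dpi and 263 CPM in sham, with a UMI in 96.1% of 3 dpi members and 71.7% of sham members. Gpd1, glycerol-3-phosphate dehydrogenase, was at 999 CPM at 3 dpi and 126 CPM in sham.

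The lowest genes were Ptgds, Jph4, C030029H02Rik, Spock3, Clmn, Creb5, Fbxo7, AY036118, Ccp110, Cdkn1c, Scg5 and Gm42418. Ptgds had the highest sham level of these. It was at 1003 CPM in 3 dpi members and 19086 CPM in sham members, 19.0-fold lower at 3 dpi (interval 18.7 to 19.3). Ptgds UMIs were spread over other classes in sham, at 681 CPM in C1q phagocytes, 538 CPM in endothelial cells and 641 CPM in precursors. At 3 dpi it was at 12.1 CPM in C1q phagocytes, 13.5 CPM in endothelial cells and 31.5 CPM in precursors. Gm42418 and AY036118 were lower at 3 dpi in C1q phagocytes, endothelial cells and precursors too, so their difference was not particular to the members. In C1q phagocytes Gm42418 was at 1575 CPM at 3 dpi and 10878 CPM in sham, and AY036118 at 79.5 CPM at 3 dpi and 705 CPM in sham. Jph4, a junctophilin that joins plasma membrane and endoplasmic reticulum, was at 5.07 CPM at 3 dpi and 118 CPM in sham. Spock3, a secreted proteoglycan, was at 42.7 CPM at 3 dpi and 272 CPM in sham.

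**Figure D2:**
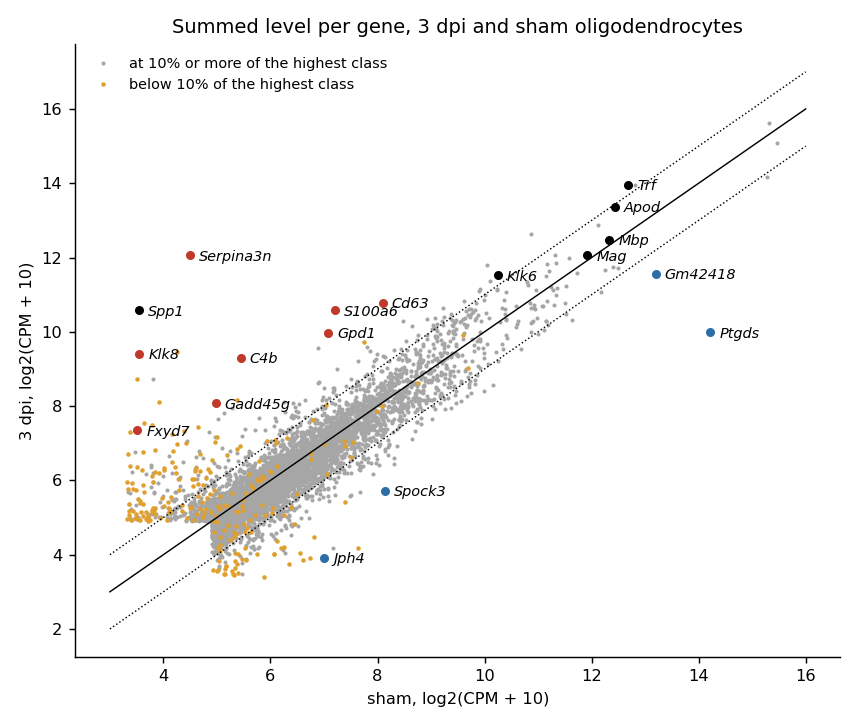
Summed level of 6350 measured genes in mature oligodendrocytes, log2(CPM + 10) at 3 dpi on the vertical axis and in sham on the horizontal axis. Red and blue points are named higher and lower genes, black points other genes of the text, orange points genes below 10% of their level in the highest class of the library where they are higher, and dotted lines mark a 2-fold ratio. Serpina3n lies farthest above the diagonal and Ptgds farthest below it.

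The acute phase and IL-6 to STAT3 list had 10 of 12 measured genes called higher and none lower. Its median log2 ratio was 2.29, against -0.06 over all measured genes. Of the 12, Serpina3n, Cebpb, Timp1, Bcl3, Pim1 and Cd44 were below 20 CPM in sham and were measured through 3 dpi alone. They could not be called lower, so the filter favours a high count and median. Serpina3n and C4b lead the list and were in view when it was made. Its regulators were higher too. Socs3, the feedback inhibitor of the pathway, was at 237 CPM at 3 dpi and 29.0 CPM in sham, with UMIs in 72.0% of 3 dpi members and 14.1% of sham members. Stat3 itself was at 207 CPM at 3 dpi and 74.3 CPM in sham. Cebpd, an acute phase transcription factor, was at 213 CPM at 3 dpi and 25.1 CPM in sham. Socs3 and Cebpd were not particular to the members at 3 dpi. Socs3 was at 141 to 540 CPM in the other classes, and Cebpd at 40.2 to 643 CPM. In C1q phagocytes Socs3 was at 263 CPM at 3 dpi and 1468 CPM in sham. In precursors Socs3 was at 540 CPM at 3 dpi and 946 CPM in sham. The receptor genes stayed low: Osmr was at 1.78 CPM at 3 dpi and 2.45 CPM in sham, and Il6st, the shared subunit, at 46.0 CPM at 3 dpi and 36.4 CPM in sham. Of the 10, Cebpb, Timp1, Pim1 and Cd44 stood below 10% of their level in the highest class at 3 dpi.

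Other inflammatory lists gave calls mostly in genes that stood low against other classes. All 4 measured MHC class II genes were called higher, at 1.85% to 2.19% of their level in the highest class. The 7 class II genes of the list summed to 13.9 CPM in sham. The 4 were thus measured through 3 dpi alone and could not be called lower. None of 7 measured MHC class I genes was called, although B2m, the shared light chain, was at 118 CPM in 3 dpi members and 58.6 CPM in sham members. None of 5 measured interferon response genes was called. Of 6 measured complement genes 4 were higher: C4b and the 3 C1q genes, which the rule limits and which stood at 1.49% to 1.92% of their level in the highest class. Il33, an alarmin that oligodendrocytes make, was at 676 CPM at 3 dpi and 417 CPM in sham.

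Myelin genes were lower more often than higher, but not together. Over all measured genes 4.02% were called lower and 4.61% higher. Among 19 measured myelin protein genes outside the rule, 5 were called lower and 1 higher, with a median of -0.60. Omg, Gpr37, Cryab and Qdpr were among the lower genes. Cryab, a small heat shock protein, was at 2163 CPM at 3 dpi and 4628 CPM in sham, while Mbp, myelin basic protein, was at 5698 CPM at 3 dpi and 5146 CPM in sham. Trf, which encodes transferrin, was the higher one, at 15981 CPM at 3 dpi and 6547 CPM in sham. The shift of this list was smaller once cells were split by their Ptgds level, as set out below. In cells high in Ptgds 2 of 19 measured genes were called lower and 1 higher, with a median of -0.27. In cells low in Ptgds 3 of 19 were called lower and 2 higher, with a median of -0.32. The 6 rule genes summed to 14842 CPM at 3 dpi and 14950 CPM in sham, a sum the rule bounds from below. Cldn11, a tight junction protein of myelin, was at 3662 CPM at 3 dpi and 2568 CPM in sham, and Opalin, a membrane glycoprotein of mature cells, at 450 CPM at 3 dpi and 922 CPM in sham.

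Lipid genes leaned lower, against 4.02% of all measured genes called lower and a median of -0.06. Of 19 measured myelin lipid enzymes 4 were called lower and none higher, with a median of -0.60. Fa2h, which hydroxylates fatty acids of myelin galactolipids, was at 304 CPM at 3 dpi and 688 CPM in sham, and Aspa, which releases acetate from N-acetylaspartate, at 329 CPM at 3 dpi and 700 CPM in sham. Cholesterol synthesis had 1 lower gene, Insig1, of 20 measured, a count near the share over all genes, with a median of -0.38. Of 18 measured lineage transcription factors 2 were called lower: Olig1 was at 376 CPM at 3 dpi and 896 CPM in sham, and Olig2 at 63.5 CPM at 3 dpi and 173 CPM in sham. Sox10, a lineage factor, was at 280 CPM at 3 dpi and 321 CPM in sham, and Myrf, which drives myelin genes, at 264 CPM at 3 dpi and 308 CPM in sham.

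Stress lists were mixed, against 4.61% of all measured genes called higher and 4.02% lower. Of 19 measured genes of endoplasmic reticulum and integrated stress 4 were called higher (Atf5, Asns, Hspa5 and Pdia6) and 2 lower (Ddit4 and Phgdh), with a median of 0.51. Hspa5, the main chaperone of the endoplasmic reticulum, was at 607 CPM at 3 dpi and 240 CPM in sham. The p53 and cell death list had 4 of 11 higher: the 3 Gadd45 genes, which respond to DNA damage and other stress, and Tnfrsf1a, the TNF receptor. Gadd45g was at 259 CPM at 3 dpi and 21.4 CPM in sham. Of 8 measured iron genes 4 were called higher and none lower. Steap3, a ferrireductase that serves transferrin uptake, was at 64.8 CPM at 3 dpi and 0.603 CPM in sham. None of 20 oxidative phosphorylation genes was called, with a median of 0.30.

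**Figure D3:**
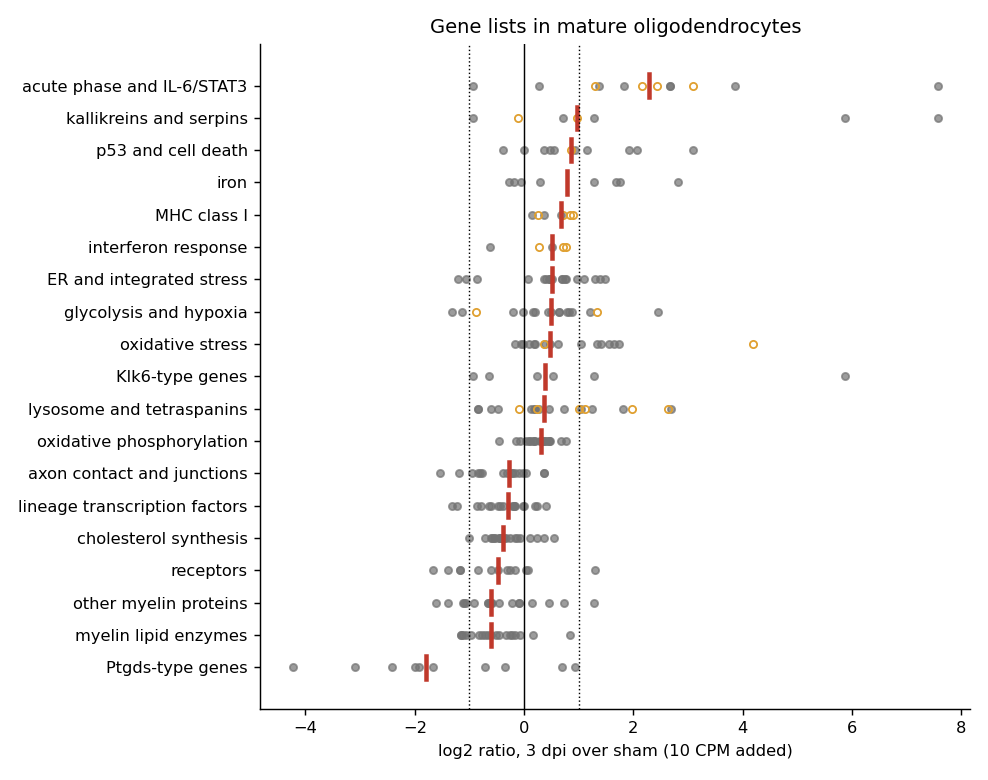
Log2 ratio of 3 dpi over sham (10 CPM added) for each measured gene of 19 lists, with lists ordered by their median (red bar). Open orange circles are genes below 10% of their level in the highest class, and dotted lines mark a 2-fold ratio. The acute phase list has a median of 2.29 and the Ptgds-type list one of -1.79.

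Cells high in Ptgds were a smaller share at 3 dpi. Cells with Ptgds at 50 per 10000 or more, a limit chosen after the data had been seen, made up 99 of 1388 members at 3 dpi (7.13%, interval 5.83 to 8.61) and 2637 of 4697 in sham (56.1%, interval 54.7 to 57.6). Fewer such cells and less Ptgds per cell cannot be told apart from these shares. Of 10 measured Ptgds-type genes 6 were called lower at 3 dpi. Of 6 Klk6-type genes Klk6 and Klk8 were called higher and none lower, while Hopx was at 300 CPM at 3 dpi and 474 CPM in sham, and Serpinb1a at 353 CPM at 3 dpi and 682 CPM in sham. Klk8 was put on this list, but its 1.69 CPM in sham members was too low to place it by type there. Within the Ptgds ranges the list leaned lower. In Ptgds-high cells 2 genes were called higher (Klk6 and Klk8) and 3 lower (Hopx, S100b and Serpinb1a), with a median log2 ratio of -0.92. In Ptgds-low cells Klk8 was called higher and Hopx and Serpinb1a lower, with a median of -0.24. Over all measured genes, 235 of 6333 were called higher and 280 lower in Ptgds-high cells. In Ptgds-low cells 310 of 6373 were called higher and 270 lower.

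Most acute phase genes were called higher within each Ptgds range. Over all measured genes, 235 of 6333 were called higher in Ptgds-high cells and 310 of 6373 in Ptgds-low cells. In Ptgds-high cells 8 of 10 measured genes of the list were called higher and Lifr, a receptor subunit, lower, at 19.3 CPM at 3 dpi and 49.7 CPM in sham. In Ptgds-low cells 10 of 12 were called higher and none lower. Listed genes that reached 20 CPM only at 3 dpi could not be called lower here either. Il6st lay at 38.6 CPM at 3 dpi and 42.1 CPM in sham in Ptgds-high cells, the other way from all members, and was called in neither range. In Ptgds-high cells Serpina3n was at 2914 CPM at 3 dpi and 11.1 CPM in sham, and in Ptgds-low cells at 4338 CPM at 3 dpi and 14.0 CPM in sham. C4b was at 1014 CPM at 3 dpi and 32.4 CPM in sham in Ptgds-high cells, and at 600 CPM at 3 dpi and 34.7 CPM in sham in Ptgds-low cells. Its 3 dpi level was thus higher in the Ptgds-high cells, the reverse of Serpina3n. Klk6 was no longer called in 1 range: in Ptgds-low cells it was at 3003 CPM at 3 dpi and 1956 CPM in sham, a log2 ratio of 0.62 that falls short of 2-fold, and in Ptgds-high cells at 1583 CPM at 3 dpi and 552 CPM in sham. Opalin turned round. It was called lower over all members, yet in Ptgds-low cells it was at 399 CPM at 3 dpi and 254 CPM in sham, and in Ptgds-high cells at 1562 CPM at 3 dpi and 1510 CPM in sham.

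Il33 and Cd63 showed larger ratios inside the Ptgds-low range than over all members. This range held 92.9% of 3 dpi and 43.9% of sham members, with Ptgds at 433 CPM at 3 dpi and 907 CPM in sham. C1q phagocytes, endothelial cells and precursors of the sham library held 538 to 681 CPM of Ptgds. Whether a range holds like cells in both libraries was not tested. In Ptgds-low cells Il33 was at 628 CPM at 3 dpi and 63.3 CPM in sham, a 9.92-fold ratio, and in Ptgds-high cells at 1715 CPM at 3 dpi and 728 CPM in sham. Cd63 was at 1718 CPM at 3 dpi and 88.3 CPM in sham in Ptgds-low cells, a 19.4-fold ratio, and at 2410 CPM at 3 dpi and 418 CPM in sham in Ptgds-high cells. Fa2h was lower in both ranges, at 301 CPM at 3 dpi and 766 CPM in sham in Ptgds-low cells. Within the 3 dpi library itself, at a 1.5-fold rule with 10 CPM added, 371 of 6128 genes were called higher in Ptgds-high than in Ptgds-low members (6.05%) and 492 lower (8.03%). Within sham the same split gave 236 of 6223 higher (3.79%) and 336 lower (5.4%). Median UMIs were 5490 in Ptgds-high and 9005 in Ptgds-low members at 3 dpi, and 6630 and 9518 in sham. The part of depth was not tested. At 3 dpi Pcdh17, a protocadherin, was at 186 CPM in Ptgds-high and 22.9 CPM in Ptgds-low members, and Hopx at 23.8 CPM in Ptgds-high and 312 CPM in Ptgds-low members. All 6 measured Klk6-type genes were lower in the Ptgds-high members. Of the 293 genes called higher over all members, 166 were called higher in both ranges, and of the 255 lower genes 123 were called lower in both.

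**Figure D4:**
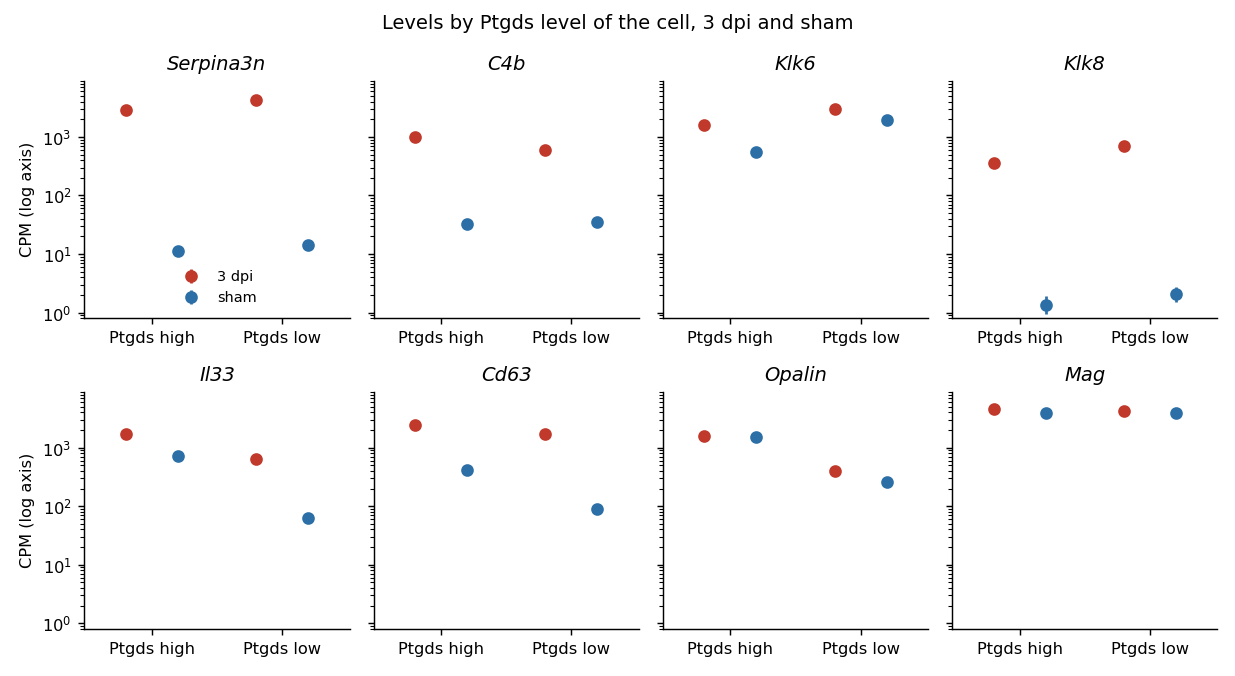
Summed level (CPM, log axis) of 8 genes at 3 dpi (red) and in sham (blue), in cells with Ptgds at 50 per 10000 or more and in cells below it; bars are exact 95% Poisson intervals, mostly smaller than the points. Serpina3n, C4b, Klk8, Il33 and Cd63 are higher at 3 dpi in both ranges, and Mag is nearly level.

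States were set by level: Serpina3n at 20, C4b at 5 and Klk6 at 10 per 10000 or more. They are ranges and not cell types, and 138, 193 and 92 of the 3 dpi members lay within 20% of the Serpina3n, C4b and Klk6 limits. At 3 dpi 1130 members were Serpina3n-high (81.4%), 788 C4b-high (56.8%) and 1182 Klk6-high (85.2%). In sham these were 1 (0.0213%), 66 (1.41%) and 1576 (33.6%). All 3 genes were high in 618 members at 3 dpi (44.5%, interval 41.9 to 47.2) and in 0 of 4697 in sham, which allows a share of up to 0.0785% by the exact interval. A further 431 members at 3 dpi (31.1%) were high in Serpina3n and Klk6 but not in C4b. Only 55 members at 3 dpi (3.96%) were low in all 3, the state of 3071 sham members (65.4%). The state with C4b alone held 70 members at 3 dpi (5.04%) and 49 in sham (1.04%).

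The states differed by Ptgds. Among Ptgds-high members at 3 dpi 51.5% were Serpina3n-high, 74.7% C4b-high and 53.5% Klk6-high. Among Ptgds-low members at 3 dpi these were 83.7%, 55.4% and 87.6%. Across the 1388 members the log2 levels of Serpina3n and Klk6 had r = 0.54 and those of Serpina3n and C4b r = 0.15, and after thinning to 1000 UMIs these were 0.29 and 0.05. All points share 1 library, and the levels of Serpina3n, C4b and Klk6 had r = 0.25, -0.17 and 0.31 with the UMIs of the cell.

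Ranked by Serpina3n and divided into 4 groups of 347 cells, the members showed a graded change in the kallikreins and in transferrin. Klk8 was at 322, 611, 826 and 845 CPM from the lowest to the highest group. Klk6 was at 2041, 2757, 3042 and 3741 CPM, and Trf at 9870, 14242, 17857 and 20660 CPM. C4b had a flatter course of 530, 565, 643 and 718 CPM. Ptgds was highest in the lowest group, at 2173 CPM, and was at 728, 841 and 536 CPM in the others. The lowest group held 54 called doublets and the highest 8. Without them the order of the Klk6, Klk8 and Trf values was the same.

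**Figure D5:**
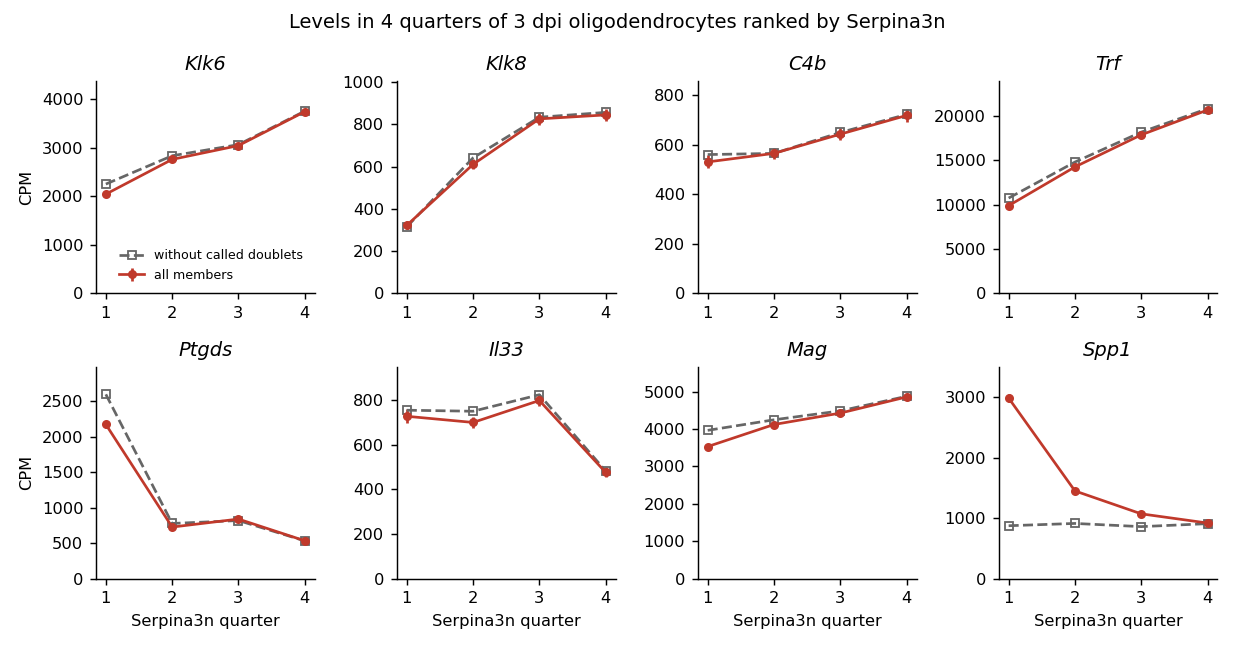
Level (CPM) of 8 genes in 4 groups of 347 members at 3 dpi ranked from low to high Serpina3n. Red circles are all members with exact 95% Poisson intervals, and open squares leave out called doublets. Klk6, Klk8 and Trf are higher in each successive group, and the Spp1 slope is absent without called doublets.

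Between Serpina3n-high and Serpina3n-low members at 3 dpi, at the same 1.5-fold rule, 110 of 6150 genes were called higher (1.79%) and 323 lower (5.25%). Without called doublets, which made up 6.11% of the high and 17.4% of the low cells, the counts were 119 higher and 97 lower. The named higher genes included Fxyd7, Klk8, Ccz1, St8sia5, Ralgps2, Flot1, Trf, Olfm1 and Tmprss5, and each of these was still called without doublets. Fxyd7 was at 171 CPM in Serpina3n-high and 37.4 CPM in Serpina3n-low members. The named lower genes were Dcn, Timp3, Nupr1, Hba-a1, Hbb-bs, Ptgds, Arg1, Pf4, Fn1 and Lgals1. Of these, Ptgds, Hba-a1 and Hbb-bs were still called without doublets, and Dcn, a fibroblast gene at 18.0 CPM in high and 352 CPM in low members, was at 7.52 CPM in high and 9.33 CPM in low members without them. Markers of other cells moved with this split when called doublets were included. In Serpina3n-high members 7 of 7 measured fibroblast and pericyte genes, 15 of 19 microglia and macrophage genes and 4 of 4 neutrophil genes were called lower. Without called doublets Pf4 was at 48.9 CPM in high and 48.0 CPM in low members, and Spp1 at 890 and 894 CPM. S100a8, a neutrophil gene, was still called lower, at 26.1 CPM in high and 44.6 CPM in low members. Of 20 measured cholesterol synthesis genes 6 were called higher and none lower. Median UMIs were 9259.5 in Serpina3n-high and 6340 in Serpina3n-low members, and the part of depth was not tested.

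C4b divided the members along other genes. Between C4b-high and C4b-low members 111 of 5968 genes were called higher (1.86%) and 130 lower (2.18%), and without called doublets 112 higher and 129 lower. Opalin was at 658 CPM in C4b-high and 251 CPM in C4b-low members, and Tspan2, a myelin tetraspanin, at 611 CPM in C4b-high and 252 CPM in C4b-low members. Tmod2, Gamt, Kcna1, Reep5, Cd9, Lgi3 and Tnni1 were also among the named higher genes. S100a6 was at 806 CPM in C4b-high and 2207 CPM in C4b-low members. Ptgds was at 1432 CPM in C4b-high and 593 CPM in C4b-low members, and Serpina3n at 4649 CPM in C4b-high and 3916 CPM in C4b-low members. Fxyd7, which was higher in Serpina3n-high members, was lower in C4b-high members, at 57.7 CPM against 243 CPM in C4b-low members. Depth ran the other way here, with median UMIs of 7544 in C4b-high and 10892 in C4b-low members, and its part was not tested.

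Klk6 separated the most genes of the 3. Between Klk6-high and Klk6-low members 308 of 6165 genes were called higher (5%) and 329 lower (5.34%), and without called doublets 351 higher and 261 lower. Hopx was at 324 CPM in Klk6-high and 57.9 CPM in Klk6-low members, and Nkx2-9, a homeobox gene, at 107 CPM in Klk6-high and 13.0 CPM in Klk6-low members. All 5 measured Klk6-type genes other than Klk6, Klk8 among them, were called higher. Opalin was at 366 CPM in Klk6-high and 1289 CPM in Klk6-low members, and Olig2 at 54.4 CPM in Klk6-high and 153 CPM in Klk6-low members. Serpina3n was at 4486 CPM in Klk6-high and 2162 CPM in Klk6-low members. Markers of other cells moved with this split too when called doublets were included. In Klk6-high members 12 of 19 measured microglia and macrophage genes were called lower, with a median of -0.71. The named lower genes included the globin genes Hba-a1, Hba-a2 and Hbb-bs, and Arg1 and Gpnmb, which macrophages express. Called doublets made up 7.28% of Klk6-high and 13.6% of Klk6-low members. Without them the globin genes were still called, and Arg1 and Gpnmb were not. Depth differed between these ranges, with median UMIs of 9325.5 in Klk6-high and 5195 in Klk6-low members, and its part was not tested.

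The nearest cells were the 330 Syt4 and Sox4 oligodendrocytes of the same library. Against them 31 of 6129 genes were called higher in the members (0.506%) and 81 lower (1.32%). Aldoc, an aldolase, was at 216 CPM in members and 42.9 CPM in Syt4 and Sox4 cells. Ccnd1, cyclin D1, was at 66.5 CPM in members and 322 CPM in those cells, and S100a10 at 171 CPM in members and 620 CPM in those cells. C4b was at 618 CPM in members and 318 CPM in Syt4 and Sox4 cells, Klk8 at 671 CPM in members and 1069 CPM in those cells, and Socs3 at 237 CPM in members and 253 CPM in those cells. Ccnd1, S100a10 and Aldoc separated them more than Serpina3n or Socs3 did.

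Cells assigned to males and to females give the only view of separate animals inside a library. Serpina3n was at 4371 CPM in male-derived and 4190 CPM in female-derived members at 3 dpi, and in sham at 12.8 CPM in male-derived and 13.1 CPM in female-derived members. C4b was at 513 CPM in male-derived and 669 CPM in female-derived members at 3 dpi, and in sham at 23.3 CPM in male-derived and 44.1 CPM in female-derived members. Klk6 was at 3068 CPM in male-derived and 2878 CPM in female-derived members at 3 dpi, and in sham at 1418 CPM in male-derived and 1193 CPM in female-derived members. The 3 dpi value exceeded the sham value in both sexes for all 3 genes.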

How the data were processed

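Per the labels' protocols, capture used 10X Chromium 3′ v3 chemistry, with 150-base reads from a NovaSeq. The authors deposited raw UMI counts per gene and barcode. The submitters' processing notes name Cell Ranger, Seurat and GRCh38, a human build, although the symbols are mouse symbols; no version or cell filter is given there, and no gene positions were used. Promoter windows are from RefSeq, GRCm38.p6.

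Members were found by the rule in both libraries, UMIs were summed over them, and CPM computed from the sums. Doublets were scored against simulated pairs and the expected number (0.8% per 1000 barcodes) was marked, not removed. Comparison classes were other barcodes set by marker sums, with no astrocyte or ependymal class. Intervals are exact Poisson, Clopper-Pearson or exact conditional intervals at 95%. They cover counting error only, and precision follows from the summed UMIs given in the results. Thinning drew 1000 UMIs per cell. The membership rule, lists, state levels and named genes were chosen with earlier results of these data known, and the motifs with the results in view. Named genes are the 12 highest and 12 lowest log2 ratios among genes that reach 100 CPM in either library, with 20 UMIs and at 10% or more of their level in the highest class; the 10 highest and 10 lowest between the ranges of a state gene; and within lists the 4 most extreme members and those at 500 CPM or more. Some genes that meet this rule are not reported here. A few genes of the text outside it, such as Il6st and Osmr, were chosen after their values were seen. The calling scripts were tested on simulated data. Alternatives were another pseudocount, scaling, removal of doublets or free RNA, cells of 1 sex, other limits, thinning and equal weight per cell. Scripts ran in Python 3.11.15 with scipy 1.17.1, numpy 2.4.6, scikit-learn 1.9.0, pandas 2.3.3 and matplotlib 3.10.9.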

Additional observations from a re-analysis of the deposited data

How the results depend on the processing

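The log2 ratios of Serpina3n (7.58), C4b (3.85) and Klk6 (1.27) stayed positive under each alternative run on them. Single genes did not all keep theirs: of the 293 higher genes 6 had the other sign in Ptgds-high cells and 0 in Ptgds-low cells, and of the 255 lower genes 2 and 3, Opalin among them, none of which passed the 2-fold rule the other way. Values moved as follows. With 1 CPM added in place of 10, Serpina3n was 8.31, C4b 4.17 and the lower genes 406. Klk6 was 1.33 with median-of-ratios scaling and 1.31 after subtraction of free RNA. In male-derived cells C4b was 3.97 and Klk6 1.11, and in female-derived cells C4b was 3.65. Without the Syt4 and Sox4 condition C4b was 3.70 and Klk6 1.21. After thinning Klk6 was 1.65, and with equal weight per cell C4b was 4.08 and Klk6 1.68. In Ptgds-low cells, an alternative chosen after seeing the data, Serpina3n was 7.5 and Klk6 0.62, below the 2-fold rule. In Ptgds-high cells Serpina3n was 7.12, C4b 4.59 and Klk6 1.5.

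The shares of Serpina3n-high, C4b-high and Klk6-high members at 3 dpi were 91.8%, 73.3% and 92.6% at limits lowered by a factor of 0.5, and 47.3%, 28.5% and 65.4% at limits raised by a factor of 2. Thinning gave 79.0% for Serpina3n and 45.2% for C4b. Male-derived members gave 48.5% for C4b and 89.7% for Klk6, and female-derived members 82.3% for Klk6. Between Serpina3n-high and -low members the higher and lower genes numbered 242 and 576 in male-derived cells, 511 and 596 after thinning, 191 higher in female-derived cells, and 97 lower without called doublets, against 110 and 323; the cause was not tested for sex or thinning, where fewer UMIs were summed.

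No paired analysis was possible because each group is 1 pooled library, so no replicate was left out either. Depth limits low genes most.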
